A study of Mus musculus with 42 samples.

Results

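The response of wild-type synovial fibroblast cultures to lipopolysaccharide (LPS) was measured by setting the 2 LPS-treated arrays, which are all the wild-type LPS arrays of the series, against the 5 untreated wild-type arrays. These are 7 of 42 arrays, each hybridised with RNA of 1 culture. The synovial cells had been isolated from arthritic BALB/c mice immunised with cartilage proteoglycan in adjuvant, grown for up to 6 passages, and kept overnight in 0.5% serum. LPS was given at 200 ng/ml for 12 h, and the sources used here do not give the time for which the untreated cultures were then kept. The comparison groups used beside it were the 2 wild-type cultures given TNFa (5 ng/ml, 12 h) and cultures labelled as coming from Tnfaip6-deficient mice. Of the latter 4 were LPS-treated, 4 TNFa-treated and 8 untreated. Tnfaip6 encodes TSG-6, a protein that binds hyaluronan. Wild-type cultures given TSG-6 (120 ug/ml), hyaluronan (24 ug/ml) or both for 12 h, 2 of each, are also quoted. The labels call the cultures biological replicates but do not say that each came from a separate animal. The p-values thus measure only the spread between cultures, pooled over the groups of all 42 arrays, and this spread may be technical.

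LPS is a constituent of the outer membrane of Gram-negative bacteria. It is carried by Lbp and Cd14 to the receptor Tlr4 with its partner Ly96, and the adaptors Myd88 and Ticam1 then lead to the transcription factors NF-kB and AP-1 and to interferon regulatory factors. In the joint lining, fibroblasts that meet LPS or TNFa are known as a source of chemokines, interleukin-6, colony-stimulating factors and matrix-degrading proteases, which draw in and sustain leukocytes.

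Expression is given as a log2 value centred on each probe set's median over the 42 arrays, so a value of 0 is that median and not an absence of RNA, and levels cannot be set between genes. A difference is a mean over LPS arrays minus a mean over untreated arrays, ± SE, on the log2 scale. It passed the test when its limma p, adjusted by the Benjamini-Hochberg method over 18194 genes, was below 0.05, and "rose" and "fell" are used only of genes that passed.

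The labelled cell type was checked against marker lists before the response was read. The mean of 12 fibroblast markers lay between -0.361 and 0.0966 in the untreated cultures and at 0.0248 and -0.242 in LPS cultures 1 and 2. Of these markers 4 were higher and 4 lower in untreated wild-type than in untreated knockout-labelled cultures, against 16.3% of all genes higher and 21.3% lower in the wild-type group (37.6% in either direction). The mean of 14 endothelial markers lay between 2.89 and 3.56 on every wild-type array and between -1.25 and 0.236 on the knockout-labelled arrays. In untreated cultures 13 of the 14 were higher in the wild-type group, Vwf being the exception. The junction genes Pecam1 and Cdh5 differed by -6.20 ± 0.62 and -5.67 ± 0.58 (knockout-labelled minus wild-type). The Tnfaip6 probe set was no lower under the knockout label, at -0.41 to 0.25 in untreated knockout-labelled and -0.55 to -0.14 in untreated wild-type cultures. Whether it falls inside the deleted stretch is unknown here, so it does not check the genotype labels. The wild-type cultures carried endothelial transcripts at far higher levels than the other cultures of the series. Macrophage markers (12) lay between -0.0645 and 0.258 and lymphocyte and neutrophil markers (10) between -0.194 and 0.0572 on the wild-type arrays.

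The values split the wild-type arrays into 2 culture sets, a and b, for which no label exists. Set a holds untreated cultures 1 to 3 and LPS culture 1, and set b holds untreated cultures 4 and 5 and LPS culture 2. An 18S ribosomal RNA probe set, a sign of differing RNA or labelling, read -0.916 on LPS array 1 and 2.53 on LPS array 2. Each LPS array thus stands alone in its set, and the within-set values below rest on 1 LPS culture each.

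Between LPS-treated and untreated cultures 217 genes differed (1.19% of those tested). Of these 134 rose (0.737%), 83 fell (0.456%) and 97 changed at least 2-fold (0.533%). All but 1 of the 217 had LPS arrays that lay wholly above or wholly below the untreated arrays, Stab2 being the exception. Over all genes 5.77% lay wholly above and 6.21% wholly below. The 217 were selected on these same arrays, which favours such separation, so it is not further evidence. The median of the 134 rises was 0.983 and that of the 83 falls -0.849. Most of these genes had the same sign under the other wild-type treatments, set against the same untreated arrays. For TNFa, TSG-6, hyaluronan and the last 2 together this held for 128, 127, 132 and 132 of the 134 rises. It held for 77, 79, 83 and 83 of the 83 falls, with medians of -0.634, -0.458, -0.446 and -0.731. How far the shared untreated arrays give this likeness was not tested. With the culture set as a block 523 genes passed, and the count was 93 without LPS culture 1, 109 without LPS culture 2, and 118 when arrays of high 18S signal were left out. Within set a alone 230 genes passed (1.26%) and within set b alone 145 (0.797%), with 113 (0.621%) passing in both in the same direction. Saa3, an acute phase serum amyloid picked out after its values were seen, differed from untreated by 1.23 in set a and by 3.22 in set b, each value from 1 LPS array, and did not pass in the pooled comparison (1.96 ± 0.55, adjusted p = 0.0751).

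Genes whose products draw in neutrophils or drive their production were among the largest rises. The gene lists used here and below were chosen with earlier results of these data known. Their counts thus describe the members and are not independent evidence that a class of genes responded. Of 7 chemokines listed as neutrophil-attracting, which include Pf4, 5 rose, against 0.737% of all genes. The list's median was 1.867 against -0.001 over all genes. The CXC chemokines Cxcl2, Cxcl3 and Cxcl1 are ligands of the neutrophil receptor Cxcr2. Cxcl2 read -3.39, -3.27, -3.37, -3.45 and -3.44 in untreated cultures 1 to 5 and 0.71 and 1.15 in LPS cultures 1 and 2. The 2 groups did not overlap, and the gap between them was several times the spread within either. The difference was 4.31 ± 0.18, or 19.9-fold (adjusted p = 2.15e-18 in limma). Cxcl3 was at -3.28, -2.81, -2.63, -2.83 and -2.81 without LPS and at 0.52 and 0.57 with it, a rise of 3.42 ± 0.21. Cxcl1 lay between -2.32 and -1.45 in the untreated cultures, lowest in the pair of set b, and rose by 1.87 ± 0.15 to 2 nearly equal values. Pf4, a CXC chemokine best known from platelets, was at 1.76, 2.27, 2.15, 2.24 and 2.18 in the untreated and at 4.77 and 5.38 in the LPS cultures, a rise of 2.95 ± 0.16.

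**Figure D1:**
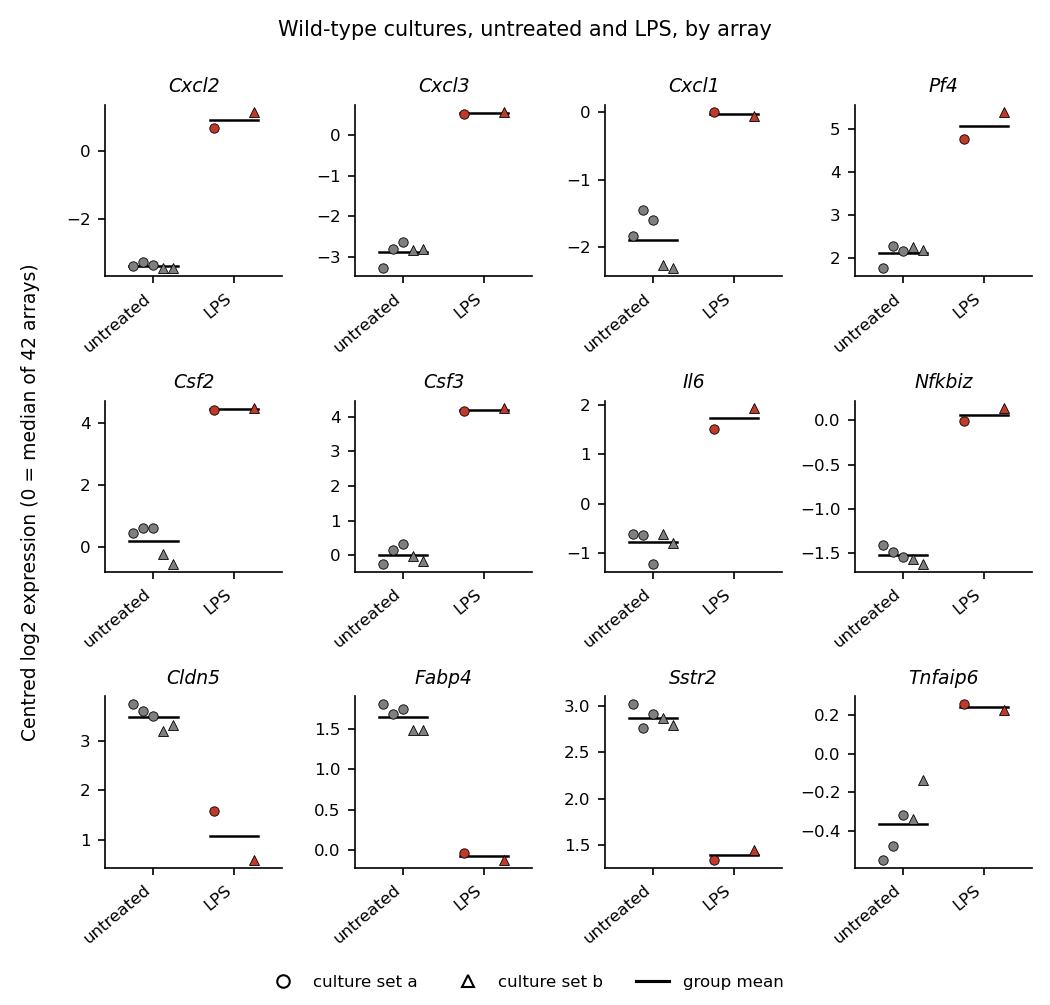
Centred log2 expression (vertical axis, 0 being the median of the 42 arrays) of 12 genes in the 5 untreated and 2 LPS-treated wild-type cultures. Each point is 1 array, circles mark culture set a and triangles set b, and the line is the group mean; in every panel the LPS arrays lie outside the range of the untreated arrays, for Cxcl2 at 0.71 and 1.15 against -3.45 to -3.27.

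In the RefSeq annotation of GRCm38.p6 these chemokine genes lie side by side on chromosome 5, in the order Cxcl5, Ppbp, Pf4, Cxcl3, Cxcl15, Cxcl1 and Cxcl2. Beside the 4 above, Cxcl5, a further Cxcr2 ligand, rose by 0.98 ± 0.19. Ppbp differed by 0.64 ± 0.68, with a wide error, and Cxcl15 by 0.05 ± 0.24, and neither passed. None of the 3 protein-coding neighbours on either side passed the test. Among them Mthfd2l, a mitochondrial folate enzyme next to Cxcl2, came nearest (0.70 ± 0.20, adjusted p = 0.0743), while Rassf6 on the other side differed by 0.39 ± 0.38 and the growth factor gene Ereg by 0.50 ± 0.20. The differences past the threshold were thus within the run of chemokine genes in this comparison.

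**Figure D2:**
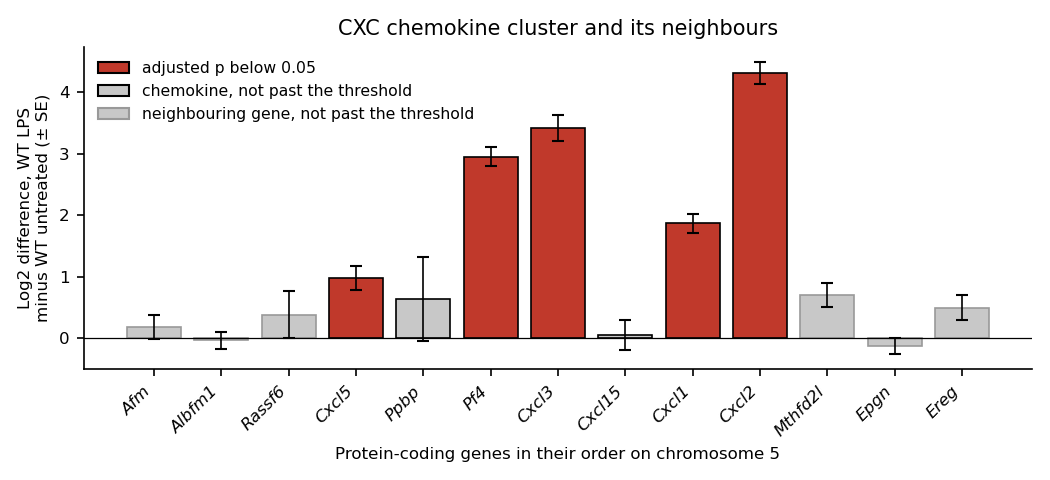
Log2 difference of LPS-treated minus untreated wild-type cultures (bars, ± SE) for 7 CXC chemokine genes and 3 protein-coding genes on either side, in their order on chromosome 5. Red bars passed the test; they run from 0.98 for Cxcl5 to 4.31 for Cxcl2, and the neighbouring genes lie between -0.12 for Epgn and 0.70 for Mthfd2l.

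The bases before the start of 4 of these genes are shown. The NF-kB motif marked in them was chosen because Cxcl1, Cxcl2 and Cxcl3 share it. The sequences are the 250 bases before the annotated start, on the forward strand of RefSeq's GRCm38.p6, at chr5:90903649-90903898, chr5:90785851-90786100, chr5:90890995-90891244 and chr5:90772185-90772434. Capitals mark each match to GGGAATTTCC, the 10-base match to the NF-kB consensus that the promoters of Cxcl1, Cxcl2 and Cxcl3 share on the gene's strand, searched on both strands.
Cxcl2: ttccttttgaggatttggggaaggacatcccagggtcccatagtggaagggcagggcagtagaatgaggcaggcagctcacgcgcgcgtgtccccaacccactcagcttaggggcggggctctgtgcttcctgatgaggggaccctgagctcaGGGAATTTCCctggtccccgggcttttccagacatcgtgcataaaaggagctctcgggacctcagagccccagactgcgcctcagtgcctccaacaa
Cxcl3: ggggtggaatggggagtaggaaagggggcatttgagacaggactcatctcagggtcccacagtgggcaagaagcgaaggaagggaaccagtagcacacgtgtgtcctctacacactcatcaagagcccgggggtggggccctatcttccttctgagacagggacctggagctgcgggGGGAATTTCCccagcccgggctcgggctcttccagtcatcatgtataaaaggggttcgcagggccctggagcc
Cxcl1: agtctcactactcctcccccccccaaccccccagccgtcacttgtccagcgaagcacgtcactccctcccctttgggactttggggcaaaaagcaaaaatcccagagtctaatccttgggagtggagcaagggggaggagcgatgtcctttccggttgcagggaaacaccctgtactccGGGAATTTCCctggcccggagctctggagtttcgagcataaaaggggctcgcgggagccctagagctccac
Pf4: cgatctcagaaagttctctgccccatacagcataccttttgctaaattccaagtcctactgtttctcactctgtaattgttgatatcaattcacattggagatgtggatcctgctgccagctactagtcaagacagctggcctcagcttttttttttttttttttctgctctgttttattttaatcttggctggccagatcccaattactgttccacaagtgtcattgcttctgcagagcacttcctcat

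The match lay from 97 to 88 bases before the start in Cxcl2, from 73 to 64 in Cxcl3 and from 71 to 62 in Cxcl1, and Pf4 held none. Lined up on the match without gaps, over 90 bases with 40 on either side of the motif, 41 bases were identical between Cxcl2 and Cxcl1, 38 between Cxcl3 and Cxcl1 and 32 between Cxcl2 and Cxcl3. Stretches shared at a shift of a few bases are not counted in these numbers. The motif occurs in 29 of 32851 promoter windows of 300 bases (0.0883%), which reach from 250 bases before to 50 after the start. Of the 134 genes that rose, 101 had a window in the table. Against 19 of 14453 tested genes with a window (0.131%), 4 of these 101 held the motif. They were Cxcl1, Cxcl2 and Cxcl3, which hold it by choice since the motif was taken from them, and the NF-kB inhibitor Nfkbia, whose match reads GGAAATTCCC and starts 29 bases before its start. The looser NF-kB consensus was found in 23 of the 101 genes that rose (22.8%), in 2 of the 60 genes that fell and had a window (3.33%), and in 877 of 14453 tested genes with one (6.07%). A match is a description of the sequence and not of binding. Csf3, Nfkbiz, Cxcl5, Cxcl16, Ccl5, Ccl2 and Arg2 were not in the table.

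Csf2 and Csf3 rose as far as the largest of the chemokines, whereas Csf1, the gene of the macrophage growth factor M-CSF, differed by -0.03 ± 0.24 and did not pass. Csf2, which encodes GM-CSF, the growth factor of granulocytes and macrophages, was at 0.46, 0.59, 0.62, -0.24 and -0.56 in the untreated cultures and at 4.43 and 4.49 under LPS. Its untreated values split by culture set, but its LPS values did not, and it rose by 4.29 ± 0.26 (19.5-fold). Csf3, the gene of the granulocyte growth factor G-CSF, was at -0.26, 0.16, 0.31, -0.01 and -0.16 and then at 4.18 and 4.25, a rise of 4.20 ± 0.38 (18.4-fold). Il6, the fever and acute phase cytokine, read -0.62, -0.63, -1.22, -0.62 and -0.79 without LPS and 1.52 and 1.93 with it. Its rise of 2.50 ± 0.50 had an adjusted p of 0.00348 in limma and lost its call without LPS culture 1 (adjusted p = 0.0526) or 2 (0.154).

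Of 23 colony-stimulating factors and cytokines measured, 7 rose and none fell, against 0.737% and 0.456% of all genes, and the list's median was 0.392 against -0.001 over all genes. The others were Tslp, an epithelial cytokine that acts on dendritic cells (1.79 ± 0.27), Tnfrsf9, Lif and Il23a. The inflammatory cytokines best known from macrophages did not pass: Tnf differed by 0.10 ± 0.16, Il1a by 0.23 ± 0.14 and Il1b by 0.26 ± 0.21. These 3 were picked out after their values were seen.

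Of 18 chemokines for other leukocytes measured, 9 rose, against 0.737% of all genes, with a median of 0.854. Ccl5, which draws T cells and monocytes, was at -1.49, -1.29, -1.04, -0.38 and -0.53 in the untreated cultures and at 2.82 and 2.37 under LPS. All untreated values lay below both LPS values, with those of set b the highest among them, and the rise was 3.54 ± 0.63 (lost without LPS culture 1, adjusted p = 0.0602 in limma). Ccl20, the ligand of Ccr6, rose by 2.79 ± 0.52 (adjusted p = 0.0875 without LPS culture 1), and Cxcl16, a membrane-bound chemokine that is also a scavenger receptor, by 2.37 ± 0.18. The monocyte attractants Ccl2 and Ccl7 rose less, by 0.66 ± 0.09 and 1.08 ± 0.13, with errors small enough that both passed clearly. Cxcl9, an interferon-inducible ligand of Cxcr3, read 3.60 in LPS culture 1 but 1.55 in LPS culture 2, against -0.34 to 0.34 in the untreated cultures. Its rise of 2.64 ± 0.47 therefore rests on unequal cultures, and it did not pass without LPS culture 1 (difference 1.62). A further probe set of Cxcl9 gave 0.88 ± 0.23.

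Of 19 genes of LPS recognition measured, 1 rose, against 0.737% of all genes, and the list's median was 0.096. It was Tlr2, the receptor of bacterial lipoproteins. Its values were -1.45, -1.32, -1.46, -1.78 and -1.85 and then -0.22 and -0.54, a rise of 1.19 ± 0.19 (adjusted p = 0.0529 without LPS culture 1, in limma). The co-receptor Cd14 was at 0.59, 0.69, 0.62, 0.18 and 0.24 without and at 1.51 and 0.82 with LPS; the groups did not overlap, but the difference of 0.70 ± 0.21 did not pass (adjusted p = 0.122 in limma). Lbp, the LPS carrier, differed by 1.24 ± 0.38 (adjusted p = 0.136) with overlapping arrays. With the culture set as a block both passed (adjusted p = 8.73e-05 for Cd14 and 1.39e-05 for Lbp in limma). Irak3, a brake on Toll-like receptor signalling, differed by 0.84 ± 0.42 and did not pass.

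Among NF-kB subunits and feedback genes, 6 of 17 rose and none fell, against 0.737% and 0.456% of all genes, with a median of 0.300. The clearest was Nfkbiz, which encodes a nuclear IkB protein that acts as a co-activator at a subset of NF-kB target genes. It was at -1.41, -1.49, -1.54, -1.56 and -1.62 in the untreated and at -0.01 and 0.13 in the LPS cultures. Both LPS arrays stood more than a log2 unit above every untreated array, and the rise was 1.59 ± 0.14 (adjusted p = 3.17e-10 in limma). Further probe sets of Nfkbiz gave 1.43 ± 0.15 and 0.06 ± 0.19. Nfkbia, the main cytoplasmic inhibitor of NF-kB and itself one of its targets, was between -0.61 and -0.31 and then at 0.23 in both LPS cultures, a rise of 0.73 ± 0.10. Ikbke, an IkB-related kinase, rose by 1.13 ± 0.14, Bcl3 by 0.90 ± 0.15, and the ubiquitin-editing enzyme Tnfaip3 and its partner Tnip1 by 1.02 ± 0.18 and 0.75 ± 0.16.

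Of 25 MAP kinase phosphatases and immediate early genes, Ier3 rose (1.03 ± 0.14) and Dusp5 fell (-0.78 ± 0.20, adjusted p = 0.0353 in limma). Over all genes 0.737% rose and 0.456% fell, and the list's median was 0.006. Socs3, an inhibitor of cytokine signalling, was at 0.78 in LPS culture 1 and 0.02 in LPS culture 2 against -0.53 to -0.37 and did not pass (adjusted p = 0.000369 in limma with a culture set block). Of 26 interferon-stimulated genes, Gbp2 alone passed (0.80 ± 0.21, adjusted p = 0.0454 in limma), against 1.19% of all genes, and the median was 0.069. Its LPS values of 0.24 and -0.58 lay above the untreated range of -1.28 to -0.76, and its adjusted p was 0.999 without LPS culture 1. Zbp1, a sensor of nucleic acids, was at 1.01 and 0.91 under LPS against -0.04 to 0.12, yet its difference of 0.91 ± 0.26 missed the threshold (adjusted p = 0.0831, and 0.0301 in limma with a culture set block).

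**Figure D3:**
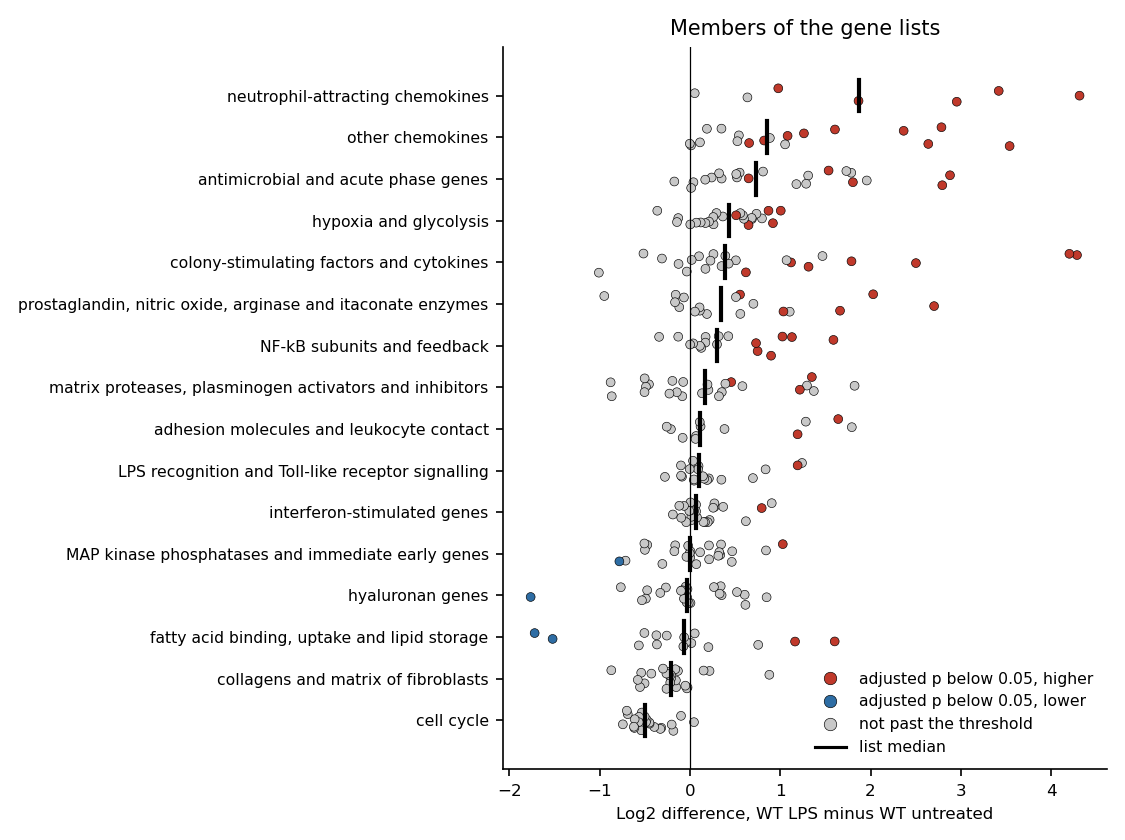
Log2 difference of LPS-treated minus untreated wild-type cultures (horizontal axis) for every measured member of 16 gene lists, ordered by list median (vertical bars). Red points passed the test and were higher, blue points passed and were lower; list medians run from -0.500 for the cell cycle to 1.867 for the neutrophil-attracting chemokines.

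Enzymes of inflammatory metabolism rose in 5 of 18 cases, against 0.737% of all genes, with a median of 0.349. Arg2, the mitochondrial arginase, was at -0.89, -0.56, -0.55, -0.71 and -0.56 without and at 1.87 and 2.22 with LPS, a rise of 2.70 ± 0.33. Acod1, which makes itaconate, rose by 2.03 ± 0.37, and Nos2, which makes nitric oxide once induced, by 1.66 ± 0.31. For both, LPS culture 1 was the higher of the pair (2.09 and 1.56 for Acod1, 0.08 and -0.56 for Nos2), and neither passed without it (adjusted p = 0.119 and 0.186 in limma). The cystine transporter Slc7a11 rose by 1.04 ± 0.21 (adjusted p = 0.365 without LPS culture 2). Ptges2, a constitutive prostaglandin E synthase, rose by 0.56 ± 0.12, whereas Ptgs2, the inducible cyclooxygenase, differed by 0.70 ± 0.46 and did not pass; these last were picked out after their values were seen.

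Antimicrobial and acute phase genes rose in 5 of 22 cases, against 0.737% of all genes. Of the 22, 13 had both LPS arrays above all untreated arrays, against 5.77% of all genes. Lcn2, which withholds iron from bacteria by binding their siderophores, was at -3.12, -2.50, -2.10, -4.70 and -4.67 in the untreated and at -0.49 and -0.76 in the LPS cultures. Its untreated level was lower in set b than in set a by over 1 log2 unit, while the LPS cultures were alike, so that its rise of 2.79 ± 0.43 was 2.08 in set a and 3.93 in set b. Fitted with only the groups compared, it did not pass (adjusted p = 0.161 in limma). Camp, the gene of the antimicrobial peptide cathelicidin, was between -2.55 and -2.30 and then at -0.65 and -0.57, a rise of 1.80 ± 0.13. Stfa3, a stefin protease inhibitor with near-identical copies that a probe set may not tell apart, rose by 2.88 ± 0.33, and Sod2, the mitochondrial superoxide dismutase, by 1.54 ± 0.18.

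Other large rises had no list. Lcp2, an adaptor of leukocyte receptor signalling, rose by 2.00 ± 0.23, while a further probe set gave 0.84 ± 0.17. The transporter Abca13 rose by 1.99 ± 0.25 and Fbp1, an enzyme of gluconeogenesis, by 2.07 ± 0.25. Clec4e, a lectin receptor for mycobacterial glycolipid, rose by 1.81 ± 0.45 and Wfdc17 by 1.96 ± 0.48. The last pair were the least certain of the 20 largest rises, with adjusted p-values of 0.0321 and 0.0273 in limma, and without LPS culture 1 or 2 these were 0.130 and 0.625 for Clec4e and 0.334 and 0.297 for Wfdc17. Leukocyte genes such as Lcp2 and Clec4e rose. The mean over the macrophage list read 0.191 and 0.0772 in the LPS cultures against -0.0645 to 0.0197 in the untreated ones. Of its 12 genes 0 passed, against 1.19% of all genes (Csf1r 0.37 ± 0.24, Lyz2 0.51 ± 0.45). The part of macrophages in these rises was not tested.

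Of 24 genes of hypoxia and glycolysis measured, 5 rose, against 0.737% of all genes, and the median was 0.438. Both LPS arrays lay above all untreated arrays for 12 of the 24, against 5.77% of all genes. Bnip3, a mitophagy receptor, was at -0.92, -1.01, -0.98, -0.93 and -0.96 and then at -0.05 and 0.14, a rise of 1.01 ± 0.15. The oxygen-sensing prolyl hydroxylase Egln3 rose by 0.92 ± 0.21, hexokinase Hk2 by 0.87 ± 0.16, the glucose transporter Slc2a1 by 0.65 ± 0.16 and P4ha2, a prolyl hydroxylase of collagen, by 0.51 ± 0.12. Without LPS culture 1 the calls of Egln3 (adjusted p = 0.204 in limma) and P4ha2 (0.607) were lost, and without LPS culture 2 those of Egln3 (0.164), Hk2 (0.192) and P4ha2 (0.0566). Slc16a1, a lactate and monocarboxylate transporter, rose by 1.66 ± 0.23, while a further probe set gave 0.27 ± 0.17.

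Lipid genes moved both ways. Of 16 measured, 2 rose, namely Pparg, the nuclear receptor of adipocyte differentiation (1.16 ± 0.22, adjusted p = 0.339 without LPS culture 1), and Angptl4, an inhibitor of lipoprotein lipase (1.60 ± 0.23; a further probe set gave 0.37 ± 0.26). The fatty acid binding proteins Fabp4 and Fabp5 fell. Over all genes 0.737% rose and 0.456% fell. Fabp4 is a target of Pparg in fat cells and also a gene of capillary endothelium. It was at 1.80, 1.69, 1.75, 1.48 and 1.48 without and at -0.03 and -0.12 with LPS, a fall of -1.72 ± 0.33. A further probe set of Fabp4 gave -1.66 ± 0.35, but others gave -0.26 ± 0.15 and -0.13 ± 0.13. Fabp5 fell by 1.52 (± 0.38) to 1.00 and 1.86. Without LPS culture 1 or 2 the adjusted p in limma was 0.0619 or 0.0821 for Fabp4 and 0.875 or 0.0606 for Fabp5.

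Endothelial genes were among the largest falls. Cldn5, the tight junction protein of vascular endothelium, was at 3.75, 3.61, 3.52, 3.21 and 3.33 in the untreated and at 1.57 and 0.59 in the LPS cultures. Both lay far below every untreated culture, with LPS culture 2 the lower. The fall was -2.40 ± 0.25 (5.29-fold, adjusted p = 3.59e-08 in limma). Cldn5 also lay below its untreated range under TNFa (2.66 and 1.91), TSG-6 (2.47 and 2.39) and hyaluronan (2.77 and 1.72). Of the 14 endothelial markers Cldn5 was the only one to pass, against 1.19% of all genes. Differences were below 0 for 13 of the 14, and the list's median was -0.380. For 6 markers both LPS arrays lay below all untreated arrays, against 6.21% of all genes. Kdr, a receptor of vascular growth factor, differed by -0.66 ± 0.19 (adjusted p = 0.0853), Robo4 by -0.65 ± 0.23 and Eng by -0.48 ± 0.16. With the culture set as a block Kdr (adjusted p = 0.00257 in limma) and Eng (0.0124) passed as well. The mean over the list was 3.06 and 2.89 under LPS against 3.27 to 3.56 without. Ptprb, a phosphatase of vascular endothelium, fell by 1.35 (± 0.28; adjusted p = 0.0830 without LPS culture 1 and 0.193 without 2), and Clec1a, a lectin of endothelial and dendritic cells, by 1.22 (± 0.19). In bulk RNA, fewer cells of a type and less RNA per cell cannot be told apart.

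Stab2, a scavenger receptor that clears hyaluronan in sinusoidal endothelium, alone passed of 24 genes in the hyaluronan list, against 1.19% of all genes. It read 3.83, 3.64, 3.77, 2.54 and 2.15 in the untreated and 2.15 and 0.69 in the LPS cultures, and these groups overlapped, since untreated culture 5 was as low as LPS culture 1 (-1.76 ± 0.45, adjusted p = 0.0387 in limma). Without LPS culture 2 its difference was -1.03 and its call was lost, as it was without untreated culture 1, 2 or 3. The hyaluronan synthases Has1 (0.34 ± 0.20) and Has2 (-0.01 ± 0.30) did not pass. Tnfaip6 itself was at -0.55, -0.48, -0.32, -0.34 and -0.14 without and at 0.26 and 0.23 with LPS. Its groups did not overlap, but the difference of 0.61 ± 0.23 did not pass (adjusted p = 0.376). The LPS-treated knockout-labelled cultures lay at -0.09 to 0.49.

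The remaining large falls were spread over receptors and channels. Sstr2, a somatostatin receptor, was at 3.02, 2.76, 2.90, 2.86 and 2.79 and then at 1.34 and 1.45, a fall of -1.47 ± 0.13. Nmb, the gene of the peptide neuromedin B, fell by 1.67 (± 0.20), Npr3, the clearance receptor of natriuretic peptides, by 1.75 (± 0.34), and Chrna7, a nicotinic receptor subunit, by 1.77 (± 0.33). Scn3a, a sodium channel gene, fell by 1.96 (± 0.37). Without LPS culture 2 the adjusted p in limma was 0.0894 for Npr3, 0.242 for Chrna7 and 0.210 for Scn3a. For several of these falls the probe sets of the gene disagreed: further ones gave 0.14 ± 0.13 for Scn3a, -0.45 ± 0.22 for Chrna7, -0.05 ± 0.10 for Cldn1 and 0.15 ± 0.10 for Eya4, while all 3 of Npr3 fell.

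None of 23 cell cycle genes passed, against 1.19% of all genes, a share at which a list of this length may well hold none. Of the 23, 22 had differences below 0, and the median was -0.500. For 5 of them both LPS arrays lay below all untreated arrays, against 6.21% of all genes. Top2a was at 0.68 and 1.47 in LPS cultures 1 and 2 against 1.33 to 2.07 in the untreated, so the groups overlapped (-0.74 ± 0.26, adjusted p = 0.289). With the culture set as a block it did pass (adjusted p = 0.0334 in limma), as did Cdk1 (0.000158) and Bub1b (0.0071). Without the block, further probe sets gave 0.13 ± 0.12 and -0.23 ± 0.20 for Top2a and -0.20 ± 0.22 and 0.02 ± 0.27 for Bub1b. Of 24 collagen and matrix genes none passed, against 1.19% of all genes. Their median was -0.214, and 3 differences lay above 0. Col1a1 differed by -0.30 ± 0.29 and Tnc by -0.87 ± 0.26 (adjusted p = 0.114). Over the alternatives the adjusted p of Tnc in limma ran from 0.0147 to 1, and Col12a1 passed with the culture set as a block (0.0301).

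Among 24 matrix proteases, plasminogen activators and inhibitors, 3 rose, Mmp9, Mmp10 and the inhibitor Timp1, against 0.737% of all genes. Mmp10, stromelysin-2, was between -0.32 and 0.06 and then at 1.03 and 1.09, a rise of 1.22 ± 0.20. Mmp9, gelatinase B, was at -0.13 in LPS culture 1 and -1.33 in LPS culture 2 against -2.20 to -1.96, a rise of 1.35 ± 0.26 that was 0.75 without LPS culture 1 (adjusted p = 0.703). Timp1 rose by 0.46 ± 0.10 (adjusted p = 0.563 without LPS culture 1). Serpinb2, an inhibitor of plasminogen activators, differed by 1.82 ± 0.50 without passing (adjusted p = 0.0674, and 0.000205 in limma with a culture set block). Of 12 adhesion genes Selp and Cd40 rose, against 0.737% of all genes. Selp, the P-selectin of endothelium and platelets, was at 7.31 and 6.79 against 4.89 to 6.06 (1.64 ± 0.39), in the direction opposite to Cldn5. Without LPS culture 1 or 2 the adjusted p in limma was 0.541 or 0.0953 for Selp and 0.449 or 0.0953 for Cd40.

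LPS was then set directly against TNFa, another activator of NF-kB, using the 2 arrays of each in the wild-type cultures. In this comparison 81 genes differed (0.445%), with 24 higher (0.132%) and 57 lower (0.313%) under LPS. The count fell to 40 without LPS culture 1, 38 without LPS culture 2, 34 without TNFa culture 2 and 13 when arrays of high 18S signal were left out. The arrays of high 18S signal include LPS culture 2 and TNFa culture 2, both of culture set b. Leaving them out therefore sets 1 LPS array against 1 TNFa array, and the 18S signal, the culture set and the smaller number of arrays cannot be told apart. With the 4 arrays of LPS and TNFa fitted on their own 0 genes passed, with 578 at an unadjusted limma p below 0.05.

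Csf3 showed the largest excess under LPS. Its TNFa values of 2.27 and 1.11 lay between the untreated values and the LPS values of 4.18 and 4.25, a difference of 2.52 ± 0.45 (adjusted p = 0.00173 in limma). Csf2 was at 3.16 and 2.29 under TNFa, below its LPS values by 1.74 ± 0.31 (LPS minus TNFa). Without TNFa culture 2 the adjusted p was 0.221 for Csf3 and 0.225 for Csf2.

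Nfkbiz lay apart under the 2 stimuli. It was at -1.17 and -1.72 under TNFa, a range that spans the untreated cultures, against -0.01 and 0.13 under LPS. Nfkbiz was higher under LPS by 1.51 ± 0.16 (adjusted p = 5.99e-07 in limma), and by 0.76 to 1.79 over the alternatives. Fbp1 was higher under LPS by 2.36 ± 0.30, Pparg by 1.97 ± 0.27 and Slc16a1 by 1.63 ± 0.27 (adjusted p = 0.0674 without LPS culture 1 and 0.195 without TNFa culture 2). Pparg lay on opposite sides of its untreated range of 0.37 to 0.71, at 1.96 and 1.39 under LPS and at 0.02 and -0.61 under TNFa. Picked out after their values were seen, Zc3h12a, an RNase that degrades cytokine mRNAs, and the transcription factor Cebpd were also higher under LPS, by 1.11 and 0.85.

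**Figure D4:**
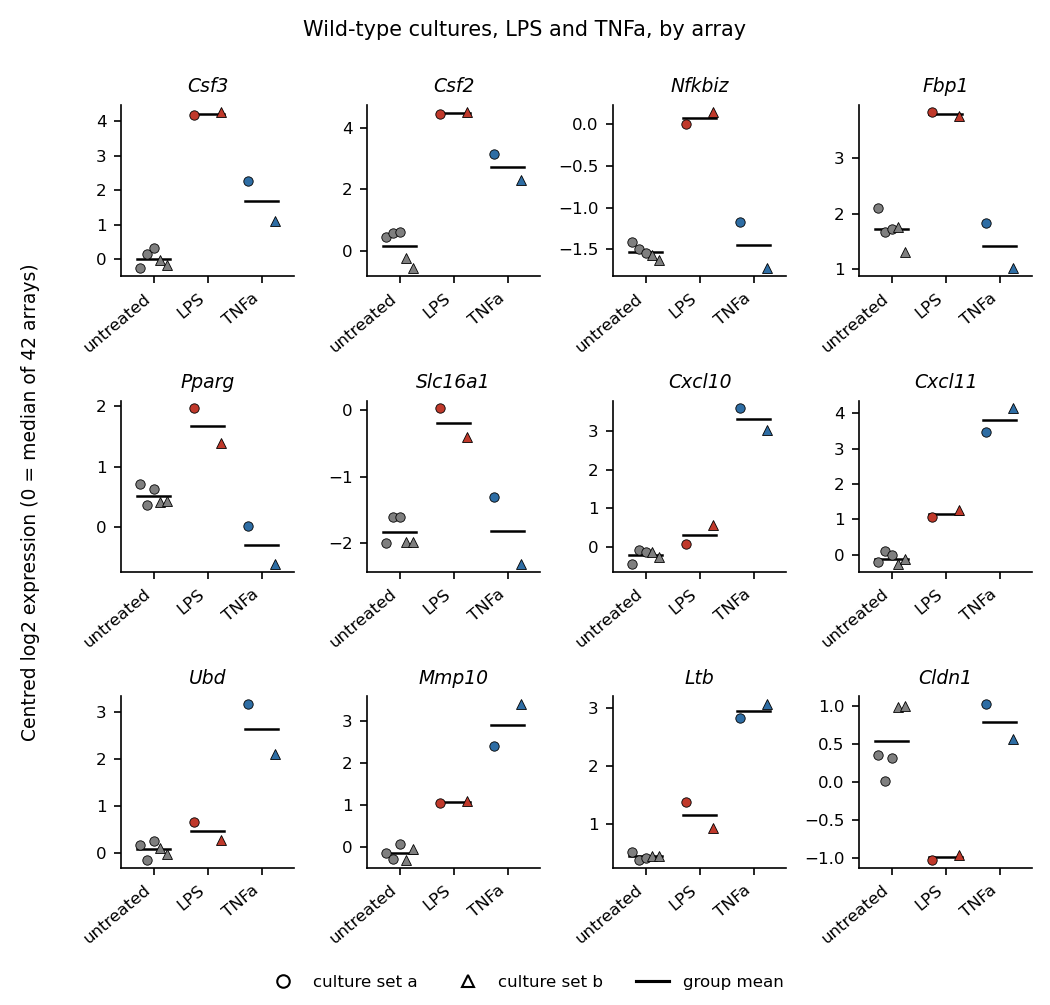
Centred log2 expression (vertical axis) of 12 genes under LPS and TNFa in wild-type cultures, with the untreated cultures for reference. Among genes that passed, they had the largest differences between LPS and TNFa in each direction, taken in equal number from each. Points are arrays (circles set a, triangles set b) and lines are group means; Csf3 lies at 4.18 and 4.25 under LPS against 2.27 and 1.11 under TNFa, and Cxcl10 at 0.07 and 0.58 against 3.59 and 3.03.

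Cxcl10, an interferon-inducible ligand of Cxcr3, showed the largest difference in the other direction. It was at 0.07 and 0.58 under LPS, close to its untreated range of -0.44 to -0.07, and at 3.59 and 3.03 under TNFa. The LPS arrays were lower by 2.99 (LPS minus TNFa -2.99 ± 0.55, adjusted p = 0.00267 in limma; 0.0975 without LPS culture 1 and 0.0662 without TNFa culture 1). Cxcl11, of the same group, was at 1.05 and 1.25 against 3.47 and 4.14 (-2.65 ± 0.39, and -2.99 to -1.52 over the alternatives). For LPS against untreated its probe set gave 1.26 ± 0.33, while a further one gave -0.13 ± 0.14. The ubiquitin-like Ubd differed by -2.18 ± 0.22, the lymphotoxin gene Ltb by -1.80 ± 0.23, Mmp10 by -1.85 ± 0.24 and Cldn1 by -1.79 ± 0.36, of which Cldn1 alone lost its call without LPS culture 1 (0.130), LPS culture 2 (0.102) or TNFa culture 1 (0.128). When arrays of high 18S signal were left out, the calls of Csf3 (adjusted p = 0.966 in limma), Csf2 (0.967), Fbp1 (0.0854), Cxcl10 (0.342), Mmp10 (0.131) and Cldn1 (0.136) between LPS and TNFa were lost.

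In the NF-kB list, 8 of 17 genes were lower under LPS than under TNFa and 1, Nfkbiz, was higher, against 0.313% and 0.132% of all genes, and the median of LPS minus TNFa was -0.570. Nfkbia was lower by 0.62 (-0.62 ± 0.12) and Tnfaip3 by 1.27, although both rose under LPS. Of 26 interferon-stimulated genes 2 were lower under LPS, with a median of -0.426. Of the 7 chemokines listed as neutrophil-attracting only Pf4, best known from platelets, was higher (0.92 ± 0.19). The 2 treatments share the untreated arrays as control, so their differences from untreated are given side by side only: Cxcl2 4.31 for LPS and 3.55 for TNFa, Il6 2.50 and 0.97, Ccl20 2.79 and 4.10, Nos2 1.66 and 1.34. The same arrays served as control for TSG-6 and hyaluronan, under which Csf3 differed from untreated by 2.86 and 2.81 and Cxcl2 by 2.06 and 2.37.

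The knockout-labelled cultures gave the same contrast in other arrays. Of the 57 genes lower under LPS than TNFa in wild-type cultures, 56 had the same sign there and 42 passed (background 2.45% of all genes lower). Cxcl10 and Cxcl11 differed there by -3.80 ± 0.39 and -4.24 ± 0.28. Of the 24 genes higher under LPS, 19 had the same sign, 7 passed (background 1.05% higher) and 2 passed in the opposite direction, Csf2 (-2.21 ± 0.22) and Csf3 (-2.07 ± 0.32). These colony-stimulating factors thus stood above TNFa under LPS in wild-type cultures and below it in knockout-labelled ones.

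The LPS response itself was compared between the genotype labels. Genotype, culture and the endothelial transcripts cannot be told apart in it, since untreated cultures of the 2 labels differed in 37.6% of genes. The knockout-labelled cultures changed 326 genes under LPS (1.79%). Of the 134 genes that rose in wild-type cultures, 124 had the same sign there and 62 rose there too, which is 46.3% of the 134 and 35.0% of the 177 that rose there (background 0.973%). Their median was 0.418 there against 0.983. Of the 83 that fell, 14 fell there too (16.9% of these 83 and 9.40% of 149, background 0.819%), with a median of -0.233 against -0.849.

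The difference of the responses passed for 39 genes (0.214%), with 12 above 0 (0.066%) and 27 below 0 (0.148%) as knockout-labelled minus wild-type, or 8 and 37 with cyclic loess scaling. The 27 below 0 were all among the 134 that rose in wild-type cultures, and 11 of the 12 above 0 were among the 83 that fell; both comparisons use the same wild-type arrays. The count was 23 without wild-type LPS culture 2 and 20 when arrays of high 18S signal were left out.

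Levels without and with LPS are given for the 6 largest differences below 0. For Cxcl2 the untreated cultures differed, at -3.45 to -3.27 in wild-type and -0.94 to -0.13 in knockout-labelled cultures, while under LPS the groups met, at 0.71 and 1.15 against 0.38 to 1.00. The difference in response was -3.00 ± 0.23 (knockout-labelled minus wild-type), and that of the LPS levels was -0.17 ± 0.19 (adjusted p = 0.634 in limma). Cxcl3 did likewise, with -2.62 ± 0.26 in response and -0.16 ± 0.21 in LPS level. Lcn2 had an untreated level of -3.42 in wild-type and -0.08 in knockout-labelled cultures, and its LPS levels differed by 0.95 ± 0.45 (adjusted p = 0.135). Its difference in response (-2.39 ± 0.54, adjusted p = 0.0415) lost its call when any of 15 cultures was left out, with 0.522 without wild-type LPS culture 1.

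For Csf2, Csf3 and Pf4 the levels differed under LPS and, by less, without it, where knockout-labelled minus wild-type was -0.97 ± 0.17, -1.55 ± 0.26 and -2.57 ± 0.11. Csf2 reached 4.43 and 4.49 in the wild-type and -0.05 to 0.79 in the knockout-labelled cultures, a difference of -4.17 ± 0.27 in LPS level and of -3.19 ± 0.32 in response. Csf3 differed by -4.30 ± 0.39 in LPS level and -2.75 ± 0.47 in response (adjusted p = 0.446 in limma when arrays of high 18S signal were left out), and Pf4 by -5.10 ± 0.16 and -2.53 ± 0.20. Il6 and Ccl5 gave no difference that passed in response (-0.41 ± 0.62 and 0.77 ± 0.78), with wide errors.

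The 6 largest differences above 0 were those of Cldn5, Fabp4, Nmb, Sstr2, Sprr1a and Clec1a. Each was high in the untreated wild-type cultures and fell under LPS, and each had means between -0.39 and -0.03 in both knockout-labelled groups, where none passed. Cldn5 was between -0.83 and 0.26 in the untreated and between -0.58 and -0.22 in the LPS-treated knockout-labelled cultures, and its difference in response was 2.27 ± 0.31. Fabp4 gave 2.04 ± 0.41 (adjusted p = 0.136 and 0.194 without wild-type LPS culture 1 or 2) and Clec1a 1.32 ± 0.23 (0.101 without wild-type LPS culture 2). Sstr2 gave 1.51 ± 0.17 and Sprr1a, a gene of the cornified envelope, 1.33 ± 0.22. When arrays of high 18S signal were left out, Cldn5 (adjusted p = 0.0849 in limma), Nmb (0.391) and Sprr1a (0.0708) did not pass.

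**Figure D5:**
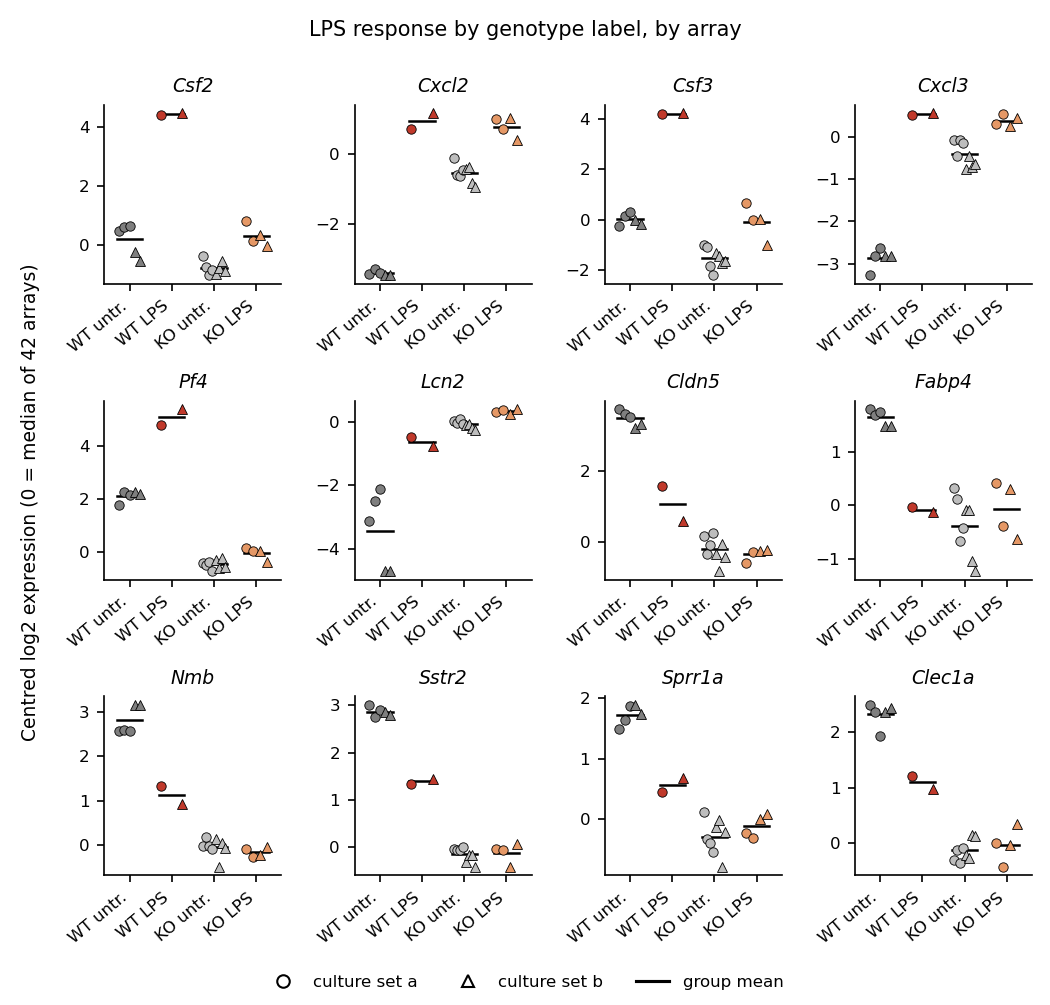
Centred log2 expression (vertical axis) of 12 genes in untreated and LPS-treated wild-type (WT) and knockout-labelled (KO) cultures. Among genes that passed, they had the largest differences in LPS response between genotype labels in each direction, taken in equal number from each. Points are arrays (circles set a and triangles set b of the genotype), lines are group means; Cxcl2 and Cxcl3 start low in untreated wild-type cultures and meet the knockout-labelled cultures under LPS, whereas Csf2 reaches 4.43 and 4.49 against -0.05 to 0.79.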

How the data were processed

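The data are 42 one-colour Affymetrix arrays with biotin-labelled cRNA, 1 per culture. RMA gave the deposited log2 values, per the submitters' processing notes, without a version, log base or batch. All 45101 probe sets are centred on 0 over the arrays, and base 2 is an inference from their widest range, 9.81. Depth does not apply to arrays, whose number limits the precision. Probe sets listed with 1 gene (34958) were used, with several (932) or none (9211) left out. Centred values show no dim probe set, so the probe set with the largest SD stood for each of 18194 genes, avoiding those that correlated above 0.7 with the 18S probe set (387) where a gene had another. Genes of the lists that had no such probe set were not analysed here.

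All 42 arrays were fitted with 12 group means in limma 3.58.1 (R 4.3.3; lmFit and eBayes, 30 residual and 4.23 prior degrees of freedom), so that a group of 2 takes its spread from all, with Benjamini-Hochberg adjustment per comparison. The fit was tested on simulated data. The members and the 20 gene lists were chosen with earlier results of these data known. Named genes are the 20 largest rises and 15 largest falls without overlap, up to 4 members per list, the 6 largest each way of the other comparisons, Tnfaip6, and list members that passed. The alternatives were other scalings, probe set rules, blocks, array sets and each culture left out. Promoter windows are RefSeq's (GRCm38.p6).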

Additional observations from a re-analysis of the deposited data

Results flagged for a closer look

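Among the 74 genes tested for a sample far from the others in the 5 untreated wild-type cultures, 4 had one, where chance gives about 1 in 20. Pf4 was lowest in untreated culture 1 (1.76), Il6 in untreated culture 3 (-1.22), Ier3 in untreated culture 1 (-1.02), and Il23a stood apart in untreated culture 5 (-0.21). Without the culture named, Pf4, Il6 and Ier3 each kept their call in the LPS comparison.

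The LPS response differed between the genotype labels, by the test of the difference itself, for the 12 genes named above. The knockout-labelled minus the wild-type response was 2.27 for Cldn5, 2.04 for Fabp4, 1.56 for Nmb, 1.51 for Sstr2, 1.33 for Sprr1a and 1.32 for Clec1a. It was -3.19 for Csf2, -3.00 for Cxcl2, -2.75 for Csf3, -2.62 for Cxcl3, -2.53 for Pf4 and -2.39 for Lcn2. The mean endothelial marker level moved with the label, at 2.89 to 3.56 on wild-type and -1.25 to 0.236 on knockout-labelled arrays, and its part in these differences was not tested.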

How the results depend on the processing

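Of the genes followed through the alternatives, none changed its direction in a setting where it passed or after passing in the fit reported. Among the genes that did not pass, Col1a1, Pdpn, Cd8a, Mpo and Ms4a1 had differences on both sides of 0 over the alternatives. Pdpn ran from -0.17 to 0.72, and Col1a1 was at 0.0071 with the mean of a gene's probe sets. For LPS against untreated the count was 217 and ranged from 145 to 254 with only the groups compared, cyclic loess, the mean of a gene's probe sets, robust eBayes, the more variable genes alone, or either culture set alone (chosen after seeing the data). For the difference between genotype labels these settings, culture sets aside, gave 35 to 45. The culture set as a block gave 523 genes for LPS against untreated, 225 for LPS against TNFa (81) and 103 for the difference between labels (39). With 15 arrays of high 18S signal left out, among them LPS culture 2, these were 118, 13 and 20. LPS against TNFa fitted on its own 4 arrays gave 0, with 578 at an unadjusted p below 0.05 and 864 in the fit of all arrays. Leaving out 1 culture gave 93 to 206, 34 to 88 and 23 to 42; the cause was not tested.

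The replicate number as a block gave 478, 182 and 76 genes. The numbers do not pair these cultures, since the deviations of LPS culture 2 correlated at -0.482 with those of untreated culture 2 and at 0.638 with those of untreated culture 4.

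Fitted with only the groups compared, calls of Lcn2, Ldb2, Mamdc2, Id2, Slc35f1, Dusp5, Gbp2, Slc7a11, Mmp9, Timp1, Stab2, Selp, Hk2 and P4ha2 against untreated were lost. With arrays of high 18S signal left out, so were those of Il6, Wfdc17, Clec4e, Npr3, Eya4, Cldn1, Fabp5, Ldb2, Ptprb, Id2, Slc35f1, Bcl3, Dusp5, Slc7a11, Timp1, Stab2, Selp, Hk2, Egln3 and P4ha2. Without LPS culture 1 or 2, calls of Dusp5, Eya4, Id2, Mamdc2 and Cldn1 against untreated were lost, and without LPS culture 2 that of Ldb2. With 2 LPS arrays and no absolute level, small changes and dim genes stay beyond what these arrays resolve.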
